A study of Mus musculus with 8 samples.

Results

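The genes described here are 37 components of the endoplasmic reticulum (ER) protein folding machinery and of the unfolded protein response, measured in AtT20 cells, a mouse pituitary corticotroph tumour cell line, with and without the retinoid X receptor (RXR) pan-agonist HX630. They were listed by name as known parts of the pathway, with earlier results of these data already known, and found on the arrays through the RefSeq accession of each probe. All 37 had a probe among the 19751 genes that could be named, and 35 of them were among the 15315 genes tested. Each group held 4 samples, and RNA came from cells cultured for 48 hr as the control or with 10 μM HX630, which was diluted from a stock in DMSO. Both groups were grown in regular medium and then kept in medium with stripped serum for the 48 hr. AtT20 is 1 line, so the values describe this line under these culture conditions. Nothing in the labels says that the 4 samples of a group were separate cultures, and p-values then measure only the spread between these samples, which may be technical.

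Proteins that enter the secretory pathway are folded in the ER by Hsp70- and Hsp90-type chaperones, by lectin chaperones that read N-linked sugars, and by oxidoreductases that form disulfide bonds. Proteins that fail to fold are drawn back out and degraded, a process called ER-associated degradation (ERAD). When unfolded proteins build up, membrane sensors start the unfolded protein response: IRE1 (gene Ern1) cuts Xbp1 mRNA so that it encodes an active transcription factor, ATF6 is released from the membrane by proteolysis, and PERK slows translation. Corticotrophs make and secrete large amounts of the peptide precursor encoded by Pomc and pass it through this machinery.

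A group of ER chaperone genes shares a promoter sequence, the ER stress element (ERSE), which was first defined on such promoters and to which NF-Y and ATF6 or XBP1 bind. It was searched for as CCAAT and CCACG with any 9 bases between them, on both strands, from 250 bases before to 50 bases after the RefSeq start (build GRCm38.p6). A match was found in 0.119% of all 32851 promoter windows and in 37 of 27025 genes (0.137%). Of the 32 genes of the set that had a window, 10 held it (31.2%): Hspa5, Hsp90b1, Pdia6, Derl3, Calr, Canx, Creld2, Dnajc3, Syvn1 and Ero1lb. Because the element was defined on genes of this kind, the share describes the set and is not an independent finding. The related ERSE-II, searched for as ATTGG, any 1 base and CCACG, was found in 12 windows of all genes (0.0365%) and in Herpud1 and Dnajb11. The core of the unfolded protein response element, TGACGTGG, was found in 0.676% of all windows and in 0 of the 32 genes. No window of the set matched more than 1 of the 3 elements, and Hsp90b1 held the ERSE at 2 positions. Atf6, Derl1, Hyou1, Manf and Sec61a1 had no entry in the promoter table.

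The matches are shown for the 10 ERSE genes and for Herpud1, so that the element can be set beside the values below. The first 4 genes were called lower with HX630, and the others were not called. Each line reads 5′ to 3′ along the gene's own strand, and capitals mark the element. Positions count from the annotated start, with -1 as the last base before it. Where the capitals begin with CGTGG, the element lies on the opposite strand.
Hspa5, chr2:34772010-34772058, plus strand, element at -65 to -47: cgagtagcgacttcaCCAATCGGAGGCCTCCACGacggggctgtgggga
Hsp90b1, upstream match, chr10:86705623-86705671, minus strand, element at -212 to -194: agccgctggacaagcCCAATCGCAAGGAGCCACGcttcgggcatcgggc
Hsp90b1, downstream match, chr10:86705518-86705566, minus strand, element at -107 to -89: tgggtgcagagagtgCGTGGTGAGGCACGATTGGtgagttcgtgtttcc
Pdia6, chr12:17266476-17266524, plus strand, element at -98 to -80: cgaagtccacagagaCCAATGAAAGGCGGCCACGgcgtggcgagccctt
Derl3, chr10:75893227-75893275, plus strand, element at -156 to -138: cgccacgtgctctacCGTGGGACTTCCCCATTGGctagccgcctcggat
Syvn1, chr19:6046517-6046565, plus strand, element at -44 to -26: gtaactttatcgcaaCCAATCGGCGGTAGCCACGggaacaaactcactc
Creld2, chr15:88819505-88819553, plus strand, element at -126 to -108: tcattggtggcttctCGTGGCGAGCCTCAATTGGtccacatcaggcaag
Canx, chr11:50325785-50325833, minus strand, element at -145 to -127: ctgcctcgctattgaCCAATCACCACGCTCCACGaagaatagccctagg
Calr, chr8:84847060-84847108, minus strand, element at -162 to -144: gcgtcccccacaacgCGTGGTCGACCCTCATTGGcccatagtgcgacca
Dnajc3, chr14:118937812-118937860, plus strand, element at -105 to -87: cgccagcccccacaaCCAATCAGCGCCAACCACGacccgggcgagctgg
Ero1lb, chr13:12565667-12565715, plus strand, element at -201 to -183: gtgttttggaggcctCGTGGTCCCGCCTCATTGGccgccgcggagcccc
Herpud1, ERSE-II, chr8:94386362-94386402, plus strand, element at -52 to -42: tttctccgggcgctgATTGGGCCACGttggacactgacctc

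Expression was measured with 1-color Agilent arrays, and a signal is given here as the log2 processed intensity minus the 75th percentile of its array, so that 0 is the 75th percentile of all probes. Signals of different genes come from different probes and are not set against each other. A gene was called changed when limma's adjusted p was below 0.01 and the fold change exceeded 1.5, which is 0.58 on the log2 scale. All 4 control arrays lay on 1 slide with 1 scan and all 4 HX630 arrays on another, so slide and treatment cannot be told apart for any value below. The probes well above background made up 69.7% to 73.5% of each array, and no spot was saturated. All 6 corticotroph markers examined, Pomc, Tbx19, Neurod1, Pitx1, Pcsk1 and Crhr1, were well above background on all 8 arrays. Their summed signal was lower with HX630 (8.23 to 8.55 in the control and 7.77 to 7.83 with HX630), Pcsk1 was called lower at -2.06, and Crhr1 (1.11) and Neurod1 (0.72) were called higher. Pomc (-0.45), Tbx19 (-0.37) and Pitx1 (-0.32) were also lower, without a call. Of 8 markers of other pituitary hormone cells, 3 were above background on all arrays (Gh, Lhb and Nr5a1) and 3 on none (Prl, Tshb and Cga). The summed signal of that list was -1.59 to -0.99 in the control and -1.65 to -1.40 with HX630, and Gh was called lower. Of 5 fibroblast markers, 2 were above background on all arrays and 2 (Pdgfra and Lum) on none; their summed signal was -3.49 to -3.24 in the control and -3.24 to -2.79 with HX630, and Dcn was called higher. Of the endothelial markers, 2 of 3 were above background on all arrays and Cdh5 on none, with sums of 1.44 to 1.75 and 1.10 to 1.40, and Pecam1 was called lower. Of 4 blood cell markers, the 2 with a probe (Ptprc and Cd3e) were above background, with sums of 1.17 to 1.53 and -0.09 to 0.08, and Cd3e was called lower. The part of other cells in the results was not tested. Control replicate 1 had the lowest 75th percentile intensity (1335 against 1357 to 1863 in the other control arrays and 1803 to 1899 with HX630).

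With HX630, 8 of the 35 tested genes were called lower (22.9%) and 0 were called higher. Across all tested genes, 11.2% were called lower and 8.38% higher, and across all tested probes 11.2% and 7.46%. The 8 genes were Ern1 and Atf6, which encode stress sensors; Hspa5 and Hsp90b1, the ER's Hsp70 and Hsp90 chaperones; Pdia6 and P4hb, which form disulfide bonds; and Derl3 and Os9 of ERAD. By limma's unadjusted p below 0.05, 3 genes of the set were higher and 25 lower (8.57% and 71.4%), beside 31.6% and 36.4% of all tested genes. The t-test of the study's methods also called 8 lower and 0 higher. Each array is scaled to its own percentile, so the values are relative to the other RNA of the sample. Because the samples are bulk RNA, less of a transcript in every cell and a smaller share of cells with it cannot be told apart.

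Most of the set lay slightly below the control rather than far below it. The fitted log2 difference was negative in 30 of the 35 genes, with a median of -0.25 and a range from -1.24 to 0.54, whereas over all tested genes 53.6% were lower and the median was -0.03. These values depend on the scaling: with spike-in scaling 10 of the 30 turned positive, and the median of the set was -0.026. At an adjusted p below 0.01 with no limit on the fold change, 22 genes of the set were lower and 2 were higher (Dnajc10 and Ero1lb), beside 27.2% and 24% of all tested genes. All 4 HX630 arrays were below all 4 control arrays in 25 genes and above them in 4, and the groups overlapped in 6. Over all tested genes these separations were seen in 32.8% and 28.6%. The exact two-sided permutation test over the 70 regroupings gives every one of these 29 separated genes its smallest possible p, 0.0286.

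**Figure D1:**
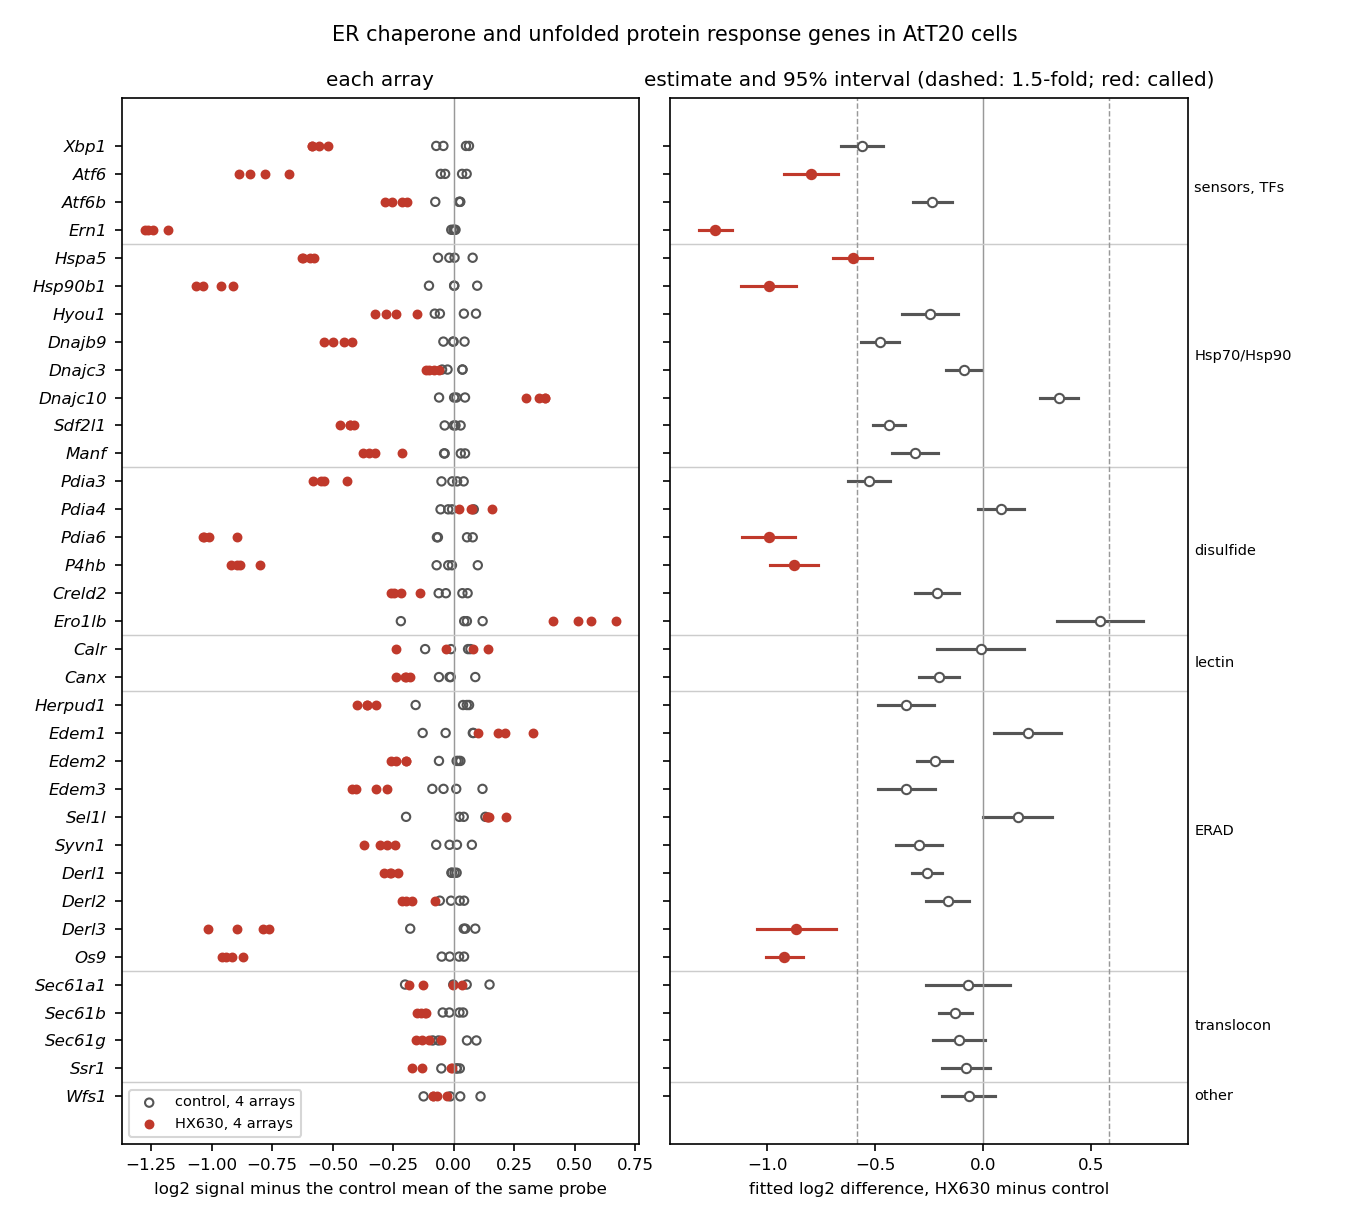
The 35 tested genes, ordered by role; the left panel shows each array's log2 signal minus the control mean of that probe (open circles, 4 control arrays; filled, 4 HX630 arrays), and the right panel the fitted log2 difference with its 95% interval, dashed lines at 1.5-fold and called genes in red. Ern1 lay farthest to the left at -1.24 and Ero1lb farthest to the right at 0.54.

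The sensors and transcription factors were lower in 4 of 4 genes, with a median log2 difference of -0.68, and 2 were called. Ern1, which encodes the IRE1 kinase and endoribonuclease, had signals of -0.05, -0.07, -0.06 and -0.05 in the control and -1.24, -1.33, -1.32 and -1.30 with HX630. The HX630 arrays were tightly grouped more than 1 log2 unit below every control array. The difference was -1.24 ± 0.033, which left 42.3% of the control signal (limma, adjusted p = 1.47e-07). Atf6, the sensor that is cut in the Golgi to free a transcription factor, had signals of 1.19, 1.10, 1.17 and 1.08 in the control and 0.45, 0.29, 0.35 and 0.25 with HX630. The groups did not overlap, and the difference of -0.80 ± 0.053 corresponded to 57.6% of the control (limma, adjusted p = 8.15e-06). This call depends on the scaling, since with the arrays scaled to the spike-in probes the Atf6 difference was -0.58 and just missed the fold threshold.

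Xbp1, the transcription factor whose mRNA IRE1 cuts, had signals of 5.60, 5.58, 5.49 and 5.46 in the control and 5.01, 4.97, 4.95 and 4.95 with HX630. Every HX630 array was below every control array, and the difference of -0.56 ± 0.042 (limma, adjusted p = 1.59e-05) lay just short of the fold threshold, at 67.7% of the control. Xbp1 passed it at -0.59 without control replicate 4. The array has 1 Xbp1 probe, which does not report how much of the mRNA was cut by IRE1. Atf6b, the paralog of Atf6, had the smallest difference of this role, with signals of -0.52, -0.62, -0.52 and -0.52 in the control and -0.76, -0.80, -0.82 and -0.74 with HX630 and a difference of -0.24 ± 0.039. It too was separated between the groups but was not called.

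Of the Hsp70 and Hsp90 chaperones and their co-chaperones, 7 of 8 tested genes were lower, with a median of -0.38, and 2 were called. Hspa5 encodes BiP, the ER's Hsp70 and its most general chaperone. Its signals were 5.89, 5.81, 5.75 and 5.79 in the control and 5.23, 5.22, 5.18 and 5.19 with HX630. No array overlapped between the groups, and the difference was -0.60 ± 0.039, or 65.8% of the control (limma, adjusted p = 6.82e-06). This value sat on the fold threshold, so Hspa5 lost its call under several other settings while staying lower: -0.41 with quantile normalization, -0.52 with median scaling, -0.38 with spike-in scaling, -0.48 with normexp background correction, -0.58 with array weights and -0.58 without control replicate 1.

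Hsp90b1 encodes GRP94, the ER's Hsp90. Its signals were 4.87, 5.07, 4.98 and 4.98 in the control and 3.91, 3.94, 4.07 and 4.01 with HX630, about 1 log2 unit apart between the groups with no overlap. The difference was -0.99 ± 0.055 with a 95% interval of -1.12 to -0.87, which left 50.2% of the control (limma, adjusted p = 2.92e-06).

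The co-chaperones spanned both directions without a call. Dnajb9, a J-domain partner of BiP, had a difference of -0.48 ± 0.038, Sdf2l1, a component of chaperone complexes in the ER, -0.44 ± 0.032, Manf, a secreted ER stress protein, -0.32 ± 0.046, and Hyou1, a nucleotide exchange factor for BiP, -0.25 ± 0.055. In all 4 the HX630 arrays lay below the control arrays. Dnajc3, a BiP co-chaperone that also inhibits PERK, had the smallest difference of this role. Its signals were -1.80, -1.77, -1.71 and -1.71 in the control and -1.81, -1.83, -1.85 and -1.86 with HX630, and the difference of -0.09 ± 0.035 did not pass the test (limma, adjusted p = 0.0574). Dnajc10, a J-domain protein that reduces disulfide bonds, went the other way, with signals of 1.66, 1.70, 1.59 and 1.65 in the control and 2.00, 2.03, 1.95 and 2.03 with HX630. All HX630 arrays were above all control arrays, and the difference was 0.35 ± 0.037 (limma, adjusted p = 0.000102), below the fold threshold. Dnajb11, another BiP co-chaperone, was not well above background on any array.

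Among the 6 genes of disulfide bond formation, 4 were lower and 2 higher, and 2 were called. Pdia6, a protein disulfide isomerase that also attenuates IRE1 signalling, had signals of 5.54, 5.52, 5.39 and 5.40 in the control and 4.57, 4.43, 4.45 and 4.43 with HX630. The 4 HX630 arrays lay close to 1 log2 unit below the controls. The difference was -0.99 ± 0.053, which left 50.2% of the control (limma, adjusted p = 2.34e-06). P4hb encodes the founding protein disulfide isomerase, PDI. It had signals of 3.90, 4.01, 3.88 and 3.84 in the control and 3.11, 2.99, 3.02 and 3.01 with HX630, again without overlap, and fell by 0.88 on the log2 scale to 54.5% of the control (limma, adjusted p = 2.71e-06).

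The other 4 genes of this role were not called. Pdia3, the isomerase that works with calnexin and calreticulin, had a difference of -0.53 ± 0.042, and Creld2, an ER stress-inducible protein, of -0.21 ± 0.043, both with the HX630 arrays below the control arrays. Pdia4 had the smallest difference, with signals of -0.96, -0.98, -1.01 and -0.87 in the control and -0.93, -0.88, -0.88 and -0.80 with HX630. The groups overlapped, and its 95% interval ran from -0.02 to 0.19. Ero1lb (current symbol Ero1b), an oxidase that passes oxidizing equivalents to PDI and is prominent in secretory endocrine cells, had the highest difference of the whole set. Its signals were -2.92, -2.66, -2.58 and -2.65 in the control and -2.19, -2.29, -2.13 and -2.03 with HX630. Every HX630 array was above every control array, and the difference was 0.54 ± 0.086, or 145% of the control (limma, adjusted p = 0.000984), just under the fold threshold. Ero1lb passed that threshold with quantile normalization (0.60), median scaling (0.63) and spike-in scaling (0.76). Its paralog Ero1l, described below, was called lower, so the differences of the 2 oxidase genes had opposite signs.

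The lectin chaperones had small differences, and neither was called. Canx encodes calnexin, the membrane-bound member of the pair. Its signals were 4.04, 3.94, 3.89 and 3.93 in the control and 3.75, 3.77, 3.75 and 3.71 with HX630, separated between the groups by a small step of -0.20 ± 0.04. Calr encodes the soluble calreticulin. It had signals of 3.86, 3.97, 4.04 and 4.05 in the control and 3.74, 3.95, 4.12 and 4.06 with HX630, and the 2 groups were fully intermixed. Its difference was -0.01 ± 0.087 with a 95% interval of -0.22 to 0.19, which includes 0. Its sign turned under several settings given in the closing section. Hsp90b1 and Calr both hold an ERSE and are luminal chaperones of the same compartment, and their 95% intervals, -1.12 to -0.87 and -0.22 to 0.19, did not meet.

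In ERAD, 8 of 10 genes were lower, with a median of -0.28, and 2 were called. Os9 encodes a lectin that delivers misfolded glycoproteins to the ubiquitin ligase complex. Its signals were 4.66, 4.64, 4.57 and 4.60 in the control and 3.74, 3.70, 3.67 and 3.66 with HX630. The groups were far apart, and the difference of -0.92 ± 0.036 left 52.8% of the control (limma, adjusted p = 6.10e-07). Derl3, a Derlin family protein of the ER membrane and a known target of the unfolded protein response, had signals of 0.66, 0.88, 0.93 and 0.89 in the control and -0.17, 0.05, 0.08 and -0.06 with HX630. It was the more variable of the pair but did not overlap, with a difference of -0.87 ± 0.079 and 54.9% of the control (limma, adjusted p = 4.49e-05).

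The remaining ERAD genes were not called. Derl1 and Derl2, the other Derlins, had differences of -0.26 ± 0.029 and -0.16 ± 0.043. Herpud1, which organizes the ligase complex and holds the ERSE-II, had -0.36 ± 0.056, and Syvn1, the ligase HRD1 itself, had -0.30 ± 0.046. For these 4 genes the HX630 arrays lay below the control arrays. The 3 EDEM genes, whose products trim mannose from glycoproteins bound for degradation, did not move together: Edem2 had -0.22 ± 0.035, Edem3 -0.36 ± 0.057 and Edem1 0.21 ± 0.067. Edem1 was separated upwards on every array, but it did not pass the test (limma, adjusted p = 0.0289). Sel1l, the partner of HRD1, had the smallest difference of this role, with signals of -0.05, -0.28, 0.04 and -0.06 in the control and 0.05, 0.13, 0.06 and 0.05 with HX630. Its HX630 arrays lay narrowly above the controls, and the difference of 0.16 ± 0.069 did not pass the test (limma, adjusted p = 0.0817).

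The translocon genes encode the channel through which new proteins enter the ER and, for Ssr1, a protein associated with it. They had small differences, with 4 of 4 lower, a median of -0.09 and 0 called. The direction depended on the processing: all 4 were positive with spike-in scaling, and other probes of Sec61b and Ssr1 were higher. Sec61b had the largest difference, with signals of 5.08, 5.09, 5.01 and 5.04 in the control and 4.94, 4.94, 4.92 and 4.90 with HX630 and a difference of -0.13 ± 0.033 (limma, adjusted p = 0.0102). Its groups did not overlap. Sec61a1, which encodes the channel itself, had the smallest difference. It had signals of 4.30, 4.50, 4.55 and 4.65 in the control and 4.31, 4.37, 4.49 and 4.53 with HX630, which overlapped, and a 95% interval from -0.27 to 0.13. Sec61g and Ssr1 had differences of -0.11 ± 0.052 and -0.08 ± 0.048, also with overlapping arrays. Wfs1, an ER membrane protein lost in Wolfram syndrome, had signals of 0.87, 1.02, 1.10 and 0.98 in the control and 0.91, 0.92, 0.96 and 0.90 with HX630 and a difference of -0.07 ± 0.052. Fkbp11, an ER prolyl isomerase, was not well above background on any array.

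The genes with an ERSE or ERSE-II were set beside those without. Of the 11 tested genes with a match, 10 were lower and 4 were called lower, with a median log2 difference of -0.30. Of the 19 tested genes with a window but no match, 15 were lower and 3 were called, with a median of -0.22. Both groups held called genes, and both ranges were wide, from -0.99 to 0.54 with a match and from -1.24 to 0.35 without. After these values were seen, the 27 other genes with an ERSE were looked up as well. Of these, 12 were tested, 1 was called lower (Tdrd9) and 1 higher (Spats2l), and their median was -0.02. Across all tested genes 11.2% were called lower and 8.38% higher, and the median was -0.03.

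For 7 genes the array has several tested probes, and the brightest was used above. In 4 of them the probes differed in sign. Dnajc10 had 0.35 at its brightest probe and -0.25 at the other, both with separated groups, so its direction depends on the probe. Derl2 had -0.16 at the brightest probe and 0.03 and 0.32 at the others. Ssr1 had -0.08, 0.35 and 0.13 in the order of brightness, and Sec61b had -0.13 and 0.12. In the other 3 the probes kept the sign but not always the size. The dimmer Dnajb9 probe was called lower at -0.80, whereas its brightest probe at -0.48 was not. Pdia6 had -0.99 and -0.40, and only the brightest was called. Derl1 had -0.26 and -0.54, neither of them called. Which transcript each probe matches beyond its accession was not examined.

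**Figure D2:**
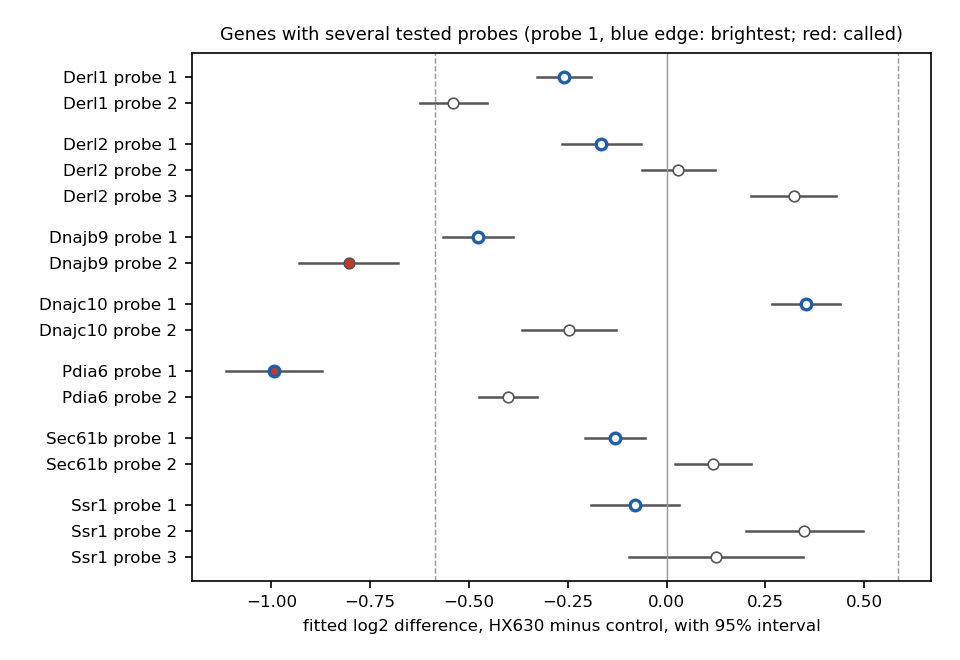
Fitted log2 difference (HX630 minus control) with its 95% interval for each tested probe of the 7 genes with more than 1 probe, numbered from the brightest (blue edge); called probes are red and dashed lines mark 1.5-fold. Probes of Dnajc10, Derl2, Sec61b and Ssr1 lay on both sides of 0.

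The rest of the pathway was described with 8 further lists, 130 genes in all, of which 127 were tested. By limma, 32 were called lower and 0 higher, with a median log2 difference of -0.31. The share called lower was 25.2%, beside 11.2% of all tested genes. At limma's unadjusted p below 0.05, 16 were higher and 83 lower (12.6% and 65.4%), beside 31.6% and 36.4% of all tested genes, and the methods' t-test also called 32 lower and 0 higher. These counts rest on the brightest probe of each gene. Some dimmer probes were called where the brightest was not, such as Map3k5 higher at 0.75, and Spcs3 (-1.34) and Dad1 (-0.60) lower. The list of the PERK arm and stress transcription factors had 4 of 10 genes called lower and a median of -0.52. Ddit3, the stress transcription factor CHOP, had signals of 1.87, 2.11, 2.23 and 2.01 in the control and 0.44, 0.54, 0.55 and 0.49 with HX630. The groups were well apart, with a difference of -1.55 ± 0.077 (limma, adjusted p = 1.67e-06). Atf3, a transcription factor induced by many stresses, had -1.50 ± 0.056, and Ppp1r15a (GADD34), which recruits the phosphatase that reverses PERK's effect on translation, had -1.46 ± 0.061. Eif2ak3, the gene of PERK itself, was lower at -0.49 ± 0.039 but was not called.

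Of the other membrane-bound factors of the response, 3 of 10 were called lower, with a median of -0.22. Creb3l1, which encodes OASIS, an ATF6-like membrane factor, had signals of 4.30, 4.22, 4.27 and 4.38 in the control and 1.83, 1.75, 1.75 and 1.81 with HX630. With a difference of -2.51 ± 0.044, it kept 17.6% of the control. Creb3l2, its close relative, had -1.52 ± 0.033, and Serp1, a stress-associated ER protein, had -0.64 ± 0.04. Of the ATF6-like genes named here, Atf6, Creb3l1 and Creb3l2 were called lower, and Atf6b was lower without a call.

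Further oxidoreductases and folding factors had 7 of 17 genes called lower and a median of -0.43. Ero1l (current symbol Ero1a), the widely expressed ER oxidase, had signals of -0.66, -0.50, -0.28 and -0.40 in the control and -1.66, -1.76, -1.81 and -1.74 with HX630 and a difference of -1.29 ± 0.081 (limma, adjusted p = 5.66e-06). Sil1, a nucleotide exchange factor for BiP, had -0.91 ± 0.036, and Pdia5 had -0.90 ± 0.043. N-glycosylation and the calnexin cycle had 6 of 14 called lower and a median of -0.43. The 3 called genes with the largest change encode parts of the oligosaccharyltransferase, which attaches the sugars. Magt1 had -1.25 ± 0.051, Rpn2 -1.04 ± 0.054 and Ddost -0.90 ± 0.038. Of its other parts in the list, Ostc (-0.67) was called lower. Dad1 (-0.46), Stt3a (-0.26), Rpn1 (-0.24), Tusc3 (-0.00066) and Stt3b (0.003) were not called.

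The ER exit and COPII list, whose products carry cargo to the Golgi and return escaped ER proteins, had 20 of 21 genes lower, 7 of them called, and a median of -0.47. With spike-in scaling 3 were called lower. Kdelr3, a receptor that retrieves luminal ER proteins such as BiP, had signals of -0.84, -0.88, -0.80 and -0.87 in the control and -4.42, -5.23, -5.25 and -5.24 with HX630. HX630 replicate 1 lay above the other HX630 arrays, and all 4 were far below the control. The difference was -4.19 ± 0.18, which left 5.49% of the control (limma, adjusted p = 9.41e-07), the largest change in any of these lists. The coat components Sec24d and Sec23a had -1.34 ± 0.059 and -0.89 ± 0.14.

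In the 3 other lists the share called lower was 5.56%, 10% and 11.8%, beside 11.2% of all tested genes. Targeting, translocation and signal peptidase had 1 of 18 (Ssr4, a subunit of the translocon-associated complex, -1.01 ± 0.034) and a median of -0.16. The other ERAD genes had 2 of 20 (Vimp, current symbol Selenos, -0.92 ± 0.045, and Erlin1, -0.80 ± 0.039) and a median of -0.07. The heat shock proteins of the cytosol and mitochondria had 2 of 17, Hspa1a at -1.85 ± 0.097 and Hspe1 at -0.70 ± 0.043, and a median of -0.30. The Hspa1a value is uncertain because Hspa1b is a near-identical copy whose signal the probe may share.

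**Figure D3:**
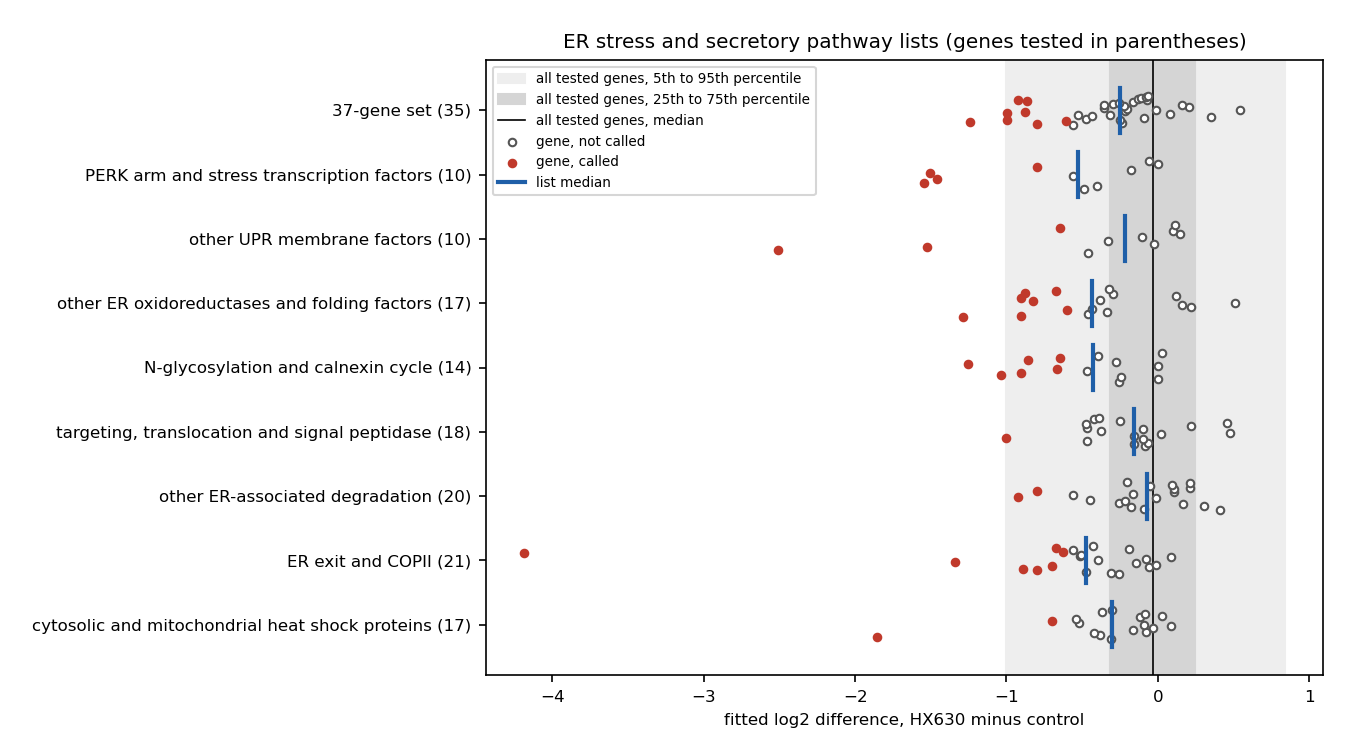
Fitted log2 difference (HX630 minus control) of each tested gene in the 37-gene set and in the 8 further lists, with called genes in red, list medians as blue bars, and the spread of all tested genes as grey bands (5th to 95th and 25th to 75th percentile; black line, median). The medians ran from -0.52 in the PERK arm and stress transcription factors to -0.07 in the other ERAD genes, and Kdelr3 lay farthest out at -4.19.

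The size of these differences depends on how the arrays are brought to one scale. Scaling to the 8 spike-in probes moved the median of all tested genes from -0.03 to 0.19, and that of the set from -0.25 to -0.03. That scaling adds the same amount to every gene, so the distance between the 2 medians, -0.21, is the same by construction. The distance could change under other settings, and was -0.24 with quantile normalization, -0.17 with normexp background correction and -0.14 with no filter on dim probes, where the median of all genes was -0.10. Of all called probes, 40.1% were higher with 75th percentile scaling, 51.6% with median scaling and 68.9% with spike-in scaling. With spike-in scaling 6 genes of the set were called lower (Ern1, Hsp90b1, Pdia6, P4hb, Derl3 and Os9) and 1 higher (Ero1lb). These 6 were called lower under all 24 other settings tried.

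**Figure D4:**
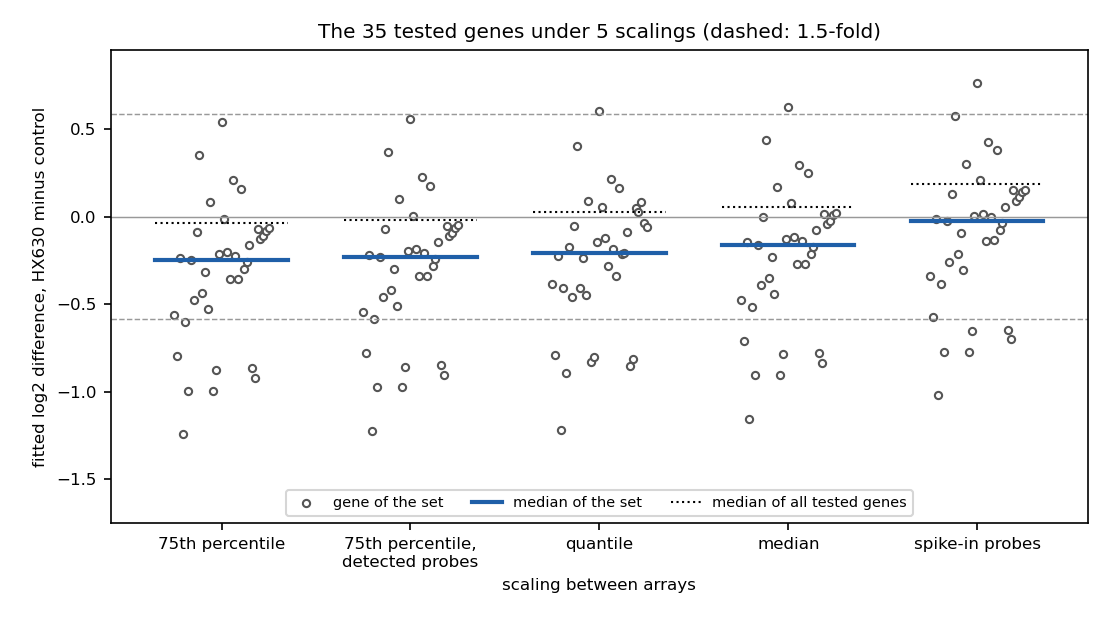
Fitted log2 difference (HX630 minus control) of the 35 tested genes under 5 scalings between arrays, with the median of the set (blue bar) and of all tested genes (dotted); dashed lines mark 1.5-fold. Spike-in scaling moves every gene up by the same amount, and the median of all tested genes from -0.03 to 0.19.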

How the data were processed

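RNA from 4 control samples and 4 samples with HX630 was hybridised to 1-color Agilent mouse 4x44K arrays. The authors ran Feature Extraction 10.7.3.1 and deposited for each array a processed intensity (background subtracted and spatially detrended), and a table of log2 values made in GeneSpring, which equals the log2 processed intensity minus each array's 75th percentile. Here, control and outlier spots were left out, spots of a probe averaged and the same scaling applied, giving 39429 probes. Of these, 28548 well above background on at least 4 arrays were tested with limma 3.58.1 in R 4.3.3 (two-sided, group only, Benjamini-Hochberg over all tested probes). A call required both a fold change over 1.5 and an adjusted p under 0.01. The 2 cut-offs are those of the study, whose methods name another test and state no adjustment of p. A gene is its brightest tested probe, named by accession through a RefSeq table (66.1% of probes named). Errors are SE with n = 4 per group (± in the text), and the number of arrays limits the precision. Named genes were, for the set, those called and those with the largest and smallest change of each role, with the remainder in brief, and, for other lists, up to 3 called genes with the largest change. The set and the lists were chosen with earlier results of these data known. Promoter windows come from RefSeq (GRCm38.p6). The 24 alternatives changed the scaling, background correction, filter, probe choice, test and threshold, added a replicate block or left out 1 array. The fit was tested on simulated data. Retrieval signals of the proteins were not analysed here.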

Additional observations from a re-analysis of the deposited data

Results flagged for a closer look

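In 3 of the 70 groups of 4 arrays formed by the 35 tested genes, 1 array stood apart from the others by Dixon's criterion, where chance gives about 1 in 20, or 3.5. For Atf6b, control replicate 2 had a log2 signal of -0.62 against a mean of -0.52 in the other control arrays, a gap of 0.953 of the group's range. For Herpud1, control replicate 1 had 2.65 against 2.86 (gap 0.888 of the range). For Sel1l, HX630 replicate 2 had 0.13 against 0.05 (gap 0.912 of the range). Without these arrays the differences were -0.26 for Atf6b, -0.41 for Herpud1 and 0.14 for Sel1l, none of them called.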

How the results depend on the processing

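Of 840 values (35 genes under 24 alternatives), 788 kept their direction and their side of the threshold, 7 lost a call, 21 gained one and 24 changed sign. Settings not named here moved no count of probes, of the set or of the other lists together by over 1.5 times. Slide and treatment cannot be told apart under any setting.

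Spike-in scaling gave 4179 probes called higher and 1888 lower (2131 and 3184 before), 1 gene of the set called higher, 4 genes of the other lists called higher and 20 lower, and a median of -0.026 for the set. It turned the median of all tested genes to 0.19 and the sign of Calr (0.21), Wfs1 (0.15), Sec61a1 (0.15), Ssr1 (0.14), Dnajc3 (0.13), Sec61g (0.11), Sec61b (0.092), Derl2 (0.056), Canx (0.016) and Creld2 (0.0062). By list, it left 3 genes called lower in ER exit and COPII, and 1 each in the other ERAD genes and the heat shock proteins. Those called higher were 2 of targeting and translocation, 1 of the oxidoreductases and 1 of the other ERAD genes. Median scaling gave 1 gene called higher in the set and 1 in the other lists, a median of -0.16 for the set and 0.053 for all tested genes, and positive values for Calr (0.076), Wfs1 (0.021), Sec61a1 (0.017) and Ssr1 (0.0075). Quantile normalization gave 1 gene of the set called higher, a median of 0.028 for all tested genes, and positive values for Sec61g (0.084), Calr (0.055), Sec61a1 (0.048) and Sec61b (0.024). Calr was also positive with the percentile over detected probes (0.0062), and leaving out 1 array moved it from -0.063 to 0.064, with 0.0083 without control replicate 3, 0.012 without control replicate 4 and the highest value without HX630 replicate 1. With the probes of each gene averaged, Derl2 was 0.062, Ssr1 0.13 and Dnajb9 was called lower at -0.64. Normexp background correction gave 1355 probes called higher and a split of 31.8% higher. With no filter the set lay -0.14 from the median of all genes, against -0.21 before. Without a fold threshold, 5763 probes were higher and 7245 lower, 2 genes of the set higher and 22 lower, and 7 genes of the other lists higher and 74 lower. The cause was not tested.

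Leaving out 1 array gave 1944 to 2567 probes called higher and 2879 to 3369 lower, 7 to 9 genes of the set and 31 to 33 of the other lists called lower with 0 higher, and a set median of -0.26 to -0.23.

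The replicate numbers are positions on the slides, and arrays of the same number did not all deviate together (correlations of 0.523, -0.0092, 0.242 and 0.381), so they were not treated as pairs. Control replicates 2 and 3 and HX630 replicate 2 did not correlate best with their own number. With the replicate number as a block, 2209 probes were called higher and 3345 lower, and 8 genes of the set and 32 of the other lists lower.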
